A study of Rattus norvegicus with 8 samples.

Results

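Genes of fatty acid oxidation, the peroxisome and ketone body synthesis were followed in rat liver after lipopolysaccharide (LPS), the endotoxin of Gram-negative bacteria. The set held 43 listed genes, matched by symbol with older synonyms counted, and 41 of them had a probe among the 14332 gene symbols of the array. Together they had 45 probes. Eci1 and Eci2 were found under the older symbols Dci and Peci, and Acsl4, Acadvl, Scp2 and Abcd3 had several probes, which were averaged. Etfdh and Acaa1a were not analysed here.

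Livers came from 8 Sprague Dawley rats of unrecorded age, 4 of them given LPS and 4 of them controls, and the labels call the samples biological replicates. Per the labels, LPS was given at 3 mg/kg into the peritoneum, the controls received 0.9% sodium chloride (they are also called non-treated), and livers were taken after 24 h. The headers of the deposited values give other designations, namely day 2 throughout, 0 mkd for control arrays, 1000 mkd for 3 LPS arrays (2, 3 and 4) and 100 mkd for LPS array 1, and which dose and time hold was not settled. Each liver RNA, labelled with Cy5, was hybridised with a pool of control liver RNA, labelled with Cy3, on an Agilent array with 2 channels. A log2 ratio of 0 therefore means that the liver and the control pool read alike. Arrays are numbered here in the order of the table within each group. Taken in this order, their ratios matched those deposited under the labels' replicate numbers (median absolute log2 difference 9.63e-05).

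Fatty acids are first bound to coenzyme A. Long chains then enter mitochondria as carnitine esters, where beta-oxidation shortens them and passes electrons to the respiratory chain through the electron transfer flavoprotein. Peroxisomes take very long, branched and dicarboxylic chains, which they shorten with enzymes of their own, and in fasting liver part of the acetyl-CoA made by mitochondria leaves as ketone bodies.

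Each array gave a value for 23408 to 23529 of its 23615 probes, in arbitrary intensity units with 2 decimals, and the number of arrays limits the precision. The median liver intensity of an array was 0.12 to 0.17 units and the highest 46.8 to 58.5 units. The SD of the log2 ratio over all probes was 0.222 to 0.339 on control arrays and 0.50 to 0.573 on LPS arrays. Of 12 hepatocyte markers, 4 had enough values for a test, 7 lacked values on too many arrays and 1 was not analysed here. Alb, plasma albumin, fell (log2 difference -1.40), Serpina1 and Hpx, proteins of the acute phase, rose (1.95 and 1.43), and Cps1 of the urea cycle did not pass the test (-0.39). Serpina1 had a ratio of exactly 0 on all 4 control arrays, where both channels gave the same rounded value. On LPS arrays it read 1.81, 1.81, 2.17 and 2.00, so the size of its rise is limited by rounding. Among the untested markers, LPS ratios were below 0 for Ahsg (-1.17 to -1.07), Tat (-1.55 to -0.88), Ttr (-0.86 and -0.83) and Cyp2e1 (-2.23 to -1.11). They were above 0 for Apoa1 (0.19 to 0.27) and Fgb (1.16 to 1.77), and Tdo2 had no LPS value. The summed intensity of the 5 hepatocyte probes with a value on every array was 45.6 to 65.4 units in control livers and 54.1 to 61.1 units in LPS livers. This sum leaves out the probes that lacked values and mixes genes that fell and rose. The summed intensity of 10 neutrophil markers was 0.589 to 0.72 units in control livers and 8.29 to 14.2 units in LPS livers, 5 of the 10 rose and none was listed at 0. T and NK cell markers summed to 1.93 to 2.21 units and to 3.15 to 4.72 units, with 5 of 9 higher. Kupffer cell and macrophage markers summed to 38.7 to 54.8 units and to 27.3 to 44.5 units, with 3 of 10 lower and 1 higher. The summed intensity of endothelial markers was 45.7 to 52.0 units in control and 33.4 to 43.4 units in LPS livers, although 4 of 8 were higher and 2 lower. Stellate cell markers summed to 9.84 to 12.2 units and to 7.52 to 9.34 units (1 of 5 lower, 2 higher), and adipocyte markers to 1.75 to 2.39 units and to 1.17 to 1.40 units (2 of 4 lower). Cholangiocyte and striated muscle markers had overlapping sums. The part of these shifts in the results below was not tested, and in bulk tissue fewer cells of a type and less RNA per cell cannot be told apart.

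Of the 36 genes with enough values for a test, 22 were lower and 1 was higher in LPS livers, and 13 did not pass the test. The test was limma on the log2 ratios with Benjamini-Hochberg adjustment over 21052 features (genes and probes without a gene symbol), and a gene was called at an adjusted p under 0.05. By this rule 12.4% of all features were lower and 12.2% higher. The median log2 difference, LPS minus control, was -0.53 over the 36 genes and -0.04 over all features. The ranges of the groups were apart in 22 genes with LPS lower and in 1 with LPS higher, as in 14.7% and 13.1% of all features. At least 2-fold lower were 11 called genes, against 1.51% of all features. Below, "fell" and "rose" are used only of called genes, differences are on the log2 scale with a standard error from limma after the ± sign, and n is 4 arrays in each group unless stated.

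**Figure D1:**
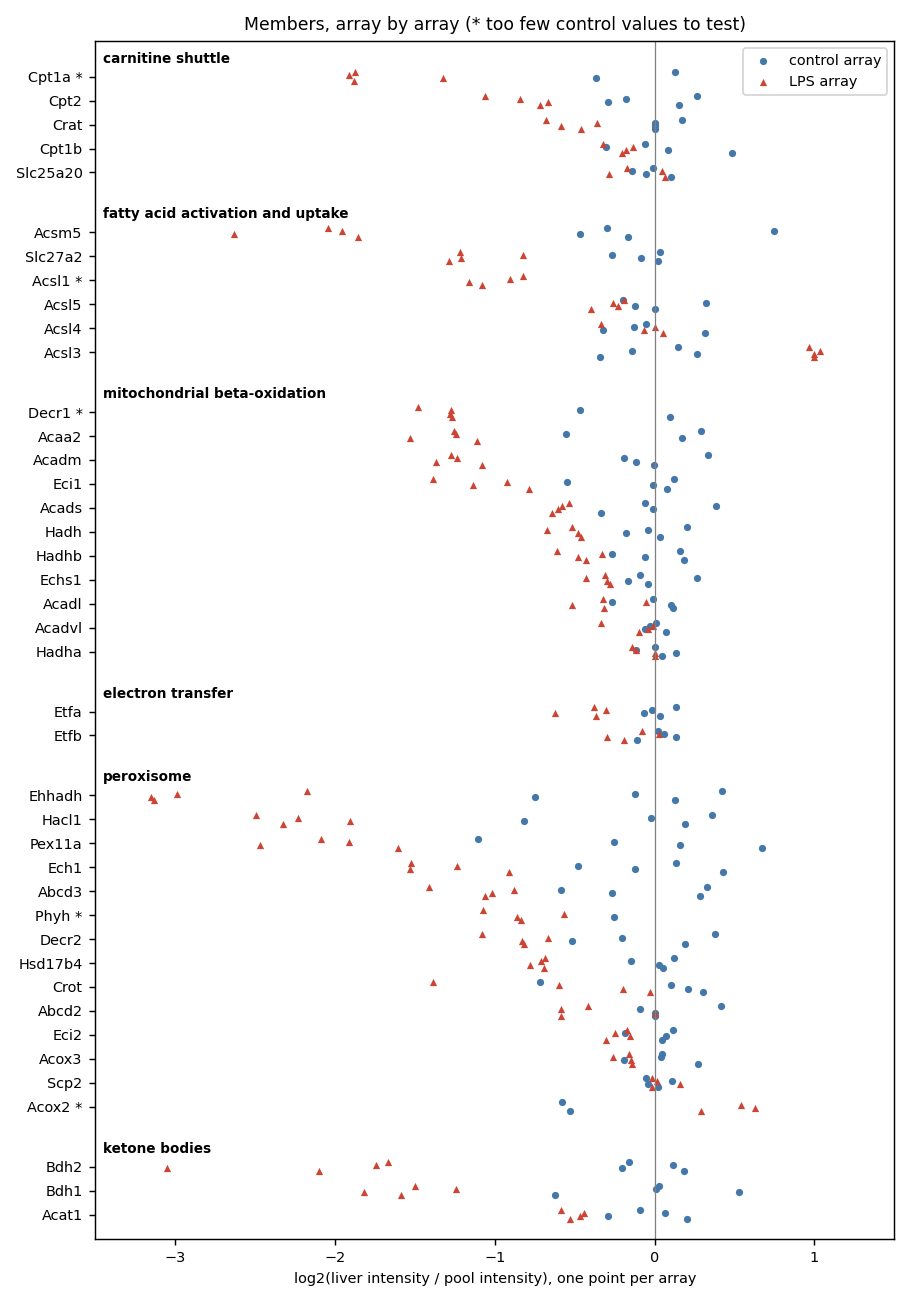
Log2 ratio of liver over pool intensity (horizontal axis) of the 41 genes with a probe, grouped by role and sorted by difference, with a circle for each control array and a triangle for each LPS array; genes with an asterisk had too few control values for a test. Ehhadh, Bdh2, Hacl1 and Acsm5 lie farthest to the left on LPS arrays, and Acsl3 is the tested gene whose triangles all lie to the right of its circles.

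The choice of scale mattered for how many genes passed. After quantile normalization of the log2 ratios between arrays, which left 3.29% of all features lower and 3.92% higher, 7 genes kept the call, namely Ehhadh, Hacl1, Bdh2, Acadm, Slc27a2, Hsd17b4 and Crat, and 16 lost it while keeping their direction. The Crat probe was dim, and its liver intensities overlapped between the groups. In a test against a change of 1.5-fold, which 0.66% of all features passed on the lower and 1.2% on the higher side, 5 genes passed as lower and none as higher, namely Ehhadh, Hacl1, Bdh2, Acsm5 and Acadm. With the liver channel alone, without the pool, 22 genes were lower and 1 was higher, against 10.1% and 7.13% of all features, with a median difference of -0.60. Echs1 (adjusted p = 0.109) and Etfa (adjusted p = 0.0566) lost the call in that channel, and Etfb (-0.44, adjusted p = 0.0352) and Acox3 (-0.52, adjusted p = 0.0352) passed it. In the pool channel, which held the same reference RNA on every array, none of the 36 genes was called (0.038% of all features were), and their differences between the array sets ran from -0.44 to 0.30 with a median of -0.14. The pool ranges of the groups were nevertheless apart in 2596 of all 21052 features with LPS arrays lower, and in 627 with LPS arrays higher. Grouped by the pool channel, the arrays split into control and LPS arrays, so effects of LPS and of array set cannot be told apart.

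**Figure D2:**
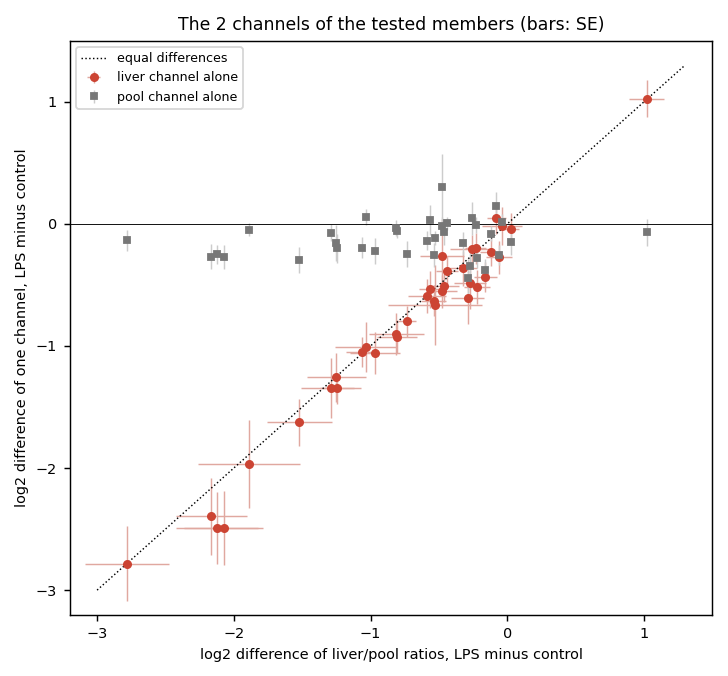
For each of the 36 tested genes, the difference of one channel alone (vertical axis, LPS minus control, log2) is plotted against the difference of the liver over pool ratios (horizontal axis, log2), with bars for the standard error. Liver channel values (circles) follow the dotted line of equal differences, and pool channel values (squares) lie between -0.44 and 0.30.

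The median differences were ordered by role. For 16 tested genes of the mitochondrial steps (carnitine shuttle, beta-oxidation and electron transfer) the median was -0.45, with 10 lower, 2 of them at least 2-fold. For 12 peroxisomal genes it was -0.77, with 7 lower, 5 of them at least 2-fold. The 3 genes of ketone bodies all fell, with a median of -1.52, and 5 genes of fatty acid activation and uptake had a median of -0.27, with 2 lower and 1 higher. On LPS arrays 1 to 4 the medians of the mitochondrial steps were -0.45, -0.34, -0.50 and -0.40, and those of the peroxisomal genes -1.23, -0.69, -0.81 and -0.76. The ketone genes had medians of -1.50, -1.25, -1.82 and -1.58 on those arrays. On each of the 4 LPS arrays the ketone genes were lowest and the peroxisomal genes lay below the mitochondrial steps, while on control arrays all 3 medians stayed between -0.21 and 0.19. Whether roles differed from each other was not tested, since the genes were chosen with results known. Leaving out genes whose products occur in both organelles gave -0.44 for the mitochondrial steps and -0.81 for the peroxisome.

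**Figure D3:**
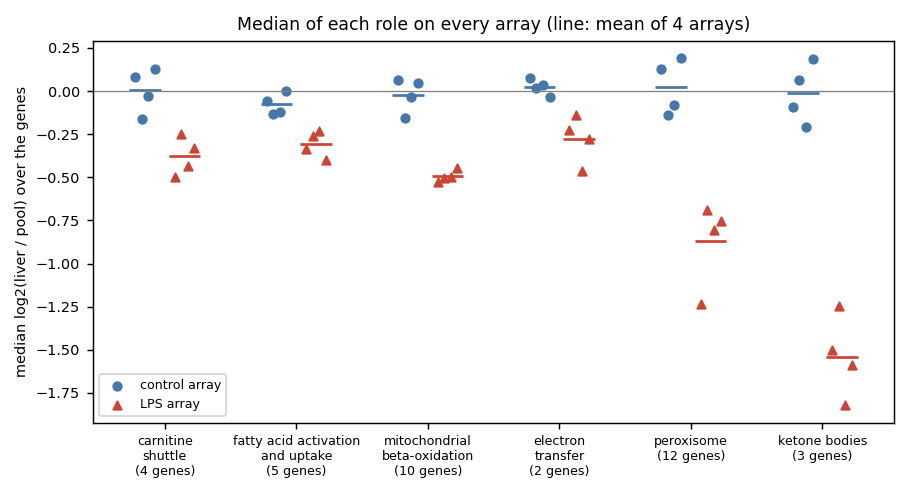
Median log2 ratio of liver over pool (vertical axis) over the tested genes of each role, with a circle for each control array, a triangle for each LPS array and a line at the mean of the 4 arrays. The 4 triangles lie below the 4 circles in every role, with the widest gap for the 3 ketone body genes (LPS -1.82 to -1.25, control -0.21 to 0.18).

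Promoters were read in windows from 250 bases before to 50 bases after the gene start (RefSeq, assembly GRCr8), which were found for 38 of the genes. The window was searched on both strands for AGGTCA, the half-site bound by many nuclear receptors that control lipid metabolism, and for its direct repeat with one base between, AGGTCANAGGTCA. The repeat was in 0 of 38 windows, against 0.0538% of all 33469 windows, and no match says only that these letters are not in the window. A single half-site was in 9 of 38 windows (23.7%), against 16.2% of all windows, and in 6 of the 20 windows of genes that fell. Matches upstream of the start in genes that fell are shown with 20 bases on either side, 5′ to 3′ on the strand of the gene, with the half-site (AGGTCA or its reverse complement TGACCT) in capitals. They are a description of sequence, not sites of binding. Acsm5, with a pair of matches, is at chr1:183302404-183302449 and chr1:183302354-183302399 (plus strand), Echs1 at chr1:204333574-204333619 (minus strand), Eci1 at chr10:13961136-13961181 (plus strand), Hsd17b4 at chr18:45515351-45515396 (plus strand) and Slc27a2 at chr3:134258005-134258050 (plus strand).
Acsm5, nearer match: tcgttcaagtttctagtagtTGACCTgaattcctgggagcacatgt
Acsm5, farther match: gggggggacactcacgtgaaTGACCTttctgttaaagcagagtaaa
Echs1: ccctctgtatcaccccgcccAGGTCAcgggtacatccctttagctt
Eci1: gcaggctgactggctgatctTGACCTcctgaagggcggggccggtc
Hsd17b4: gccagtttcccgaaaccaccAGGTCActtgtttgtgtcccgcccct
Slc27a2: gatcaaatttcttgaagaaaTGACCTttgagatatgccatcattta

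Among the genes that bind fatty acids to coenzyme A or bring them into the cell, Slc27a2 and Acsm5 fell and Acsl3 rose. Slc27a2 encodes a fatty acid transporter that also activates very long chains, and its log2 ratios were 0.03, -0.27, -0.08 and 0.02 on control arrays 1 to 4 and -1.22, -0.83, -1.21 and -1.29 on LPS arrays 1 to 4. All LPS values lay below all control values. It fell by 1.06 ± 0.12 (2.09-fold lower, adjusted p = 0.000876), and 3 of its values were near the ceiling, that is, at 90% or more of the highest value of their array and channel. Acsm5, of the medium-chain acyl-CoA synthetases, read -0.30, 0.75, -0.47 and -0.17 in controls and -2.04, -1.95, -2.63 and -1.86 after LPS. It fell by 2.08 ± 0.29 (4.21-fold lower, adjusted p = 0.00224) without overlap, from a mean liver intensity of 0.355 units to 0.0725 units, which is a few steps of the 2 decimals.

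Acsl3, a long-chain acyl-CoA synthetase of the endoplasmic reticulum and lipid droplets, was the one tested gene that rose. Its ratios were 0.14, -0.14, 0.26 and -0.34 on the control arrays and 0.97, 1.03, 1.00 and 1.00 on the LPS arrays. The rise of 1.02 ± 0.13 (2.03-fold, adjusted p = 0.00145) took the mean liver intensity from 0.198 to 0.435 units, and the LPS values spanned far less than the control values. On LPS arrays the pool read 0.21, 0.21, 0.23 and 0.22 units. The narrow span is thus close to the steps of the 2 decimals, and nothing is drawn from it. Its relatives Acsl5 and Acsl4 had overlapping groups. Acsl5 differed by -0.27 (95% interval -0.54 to -0.0012, adjusted p = 0.13) and Acsl4 by -0.04 (95% interval -0.38 to 0.30, adjusted p = 0.874), and neither passed the test.

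Acsl1, the main long-chain synthetase of hepatocytes, had no value on any control array and so no test. On LPS arrays 1 to 4 its ratios to the control pool were -0.83, -0.91, -1.16 and -1.08. The liver read 37.7, 34.4, 27.7 and 32.6 units there and the pool 66.9, 64.5, 62.0 and 69.1 units, near the ceiling on all 4 arrays. All 4 livers thus read below the pool, which is the only comparison these values allow.

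In the carnitine shuttle, Cpt2 and Crat fell, Cpt1b and Slc25a20 did not pass the test, and Cpt1a had too few values. Cpt1a encodes the liver form of carnitine palmitoyltransferase 1, the rate-limiting entry of long chains into mitochondria. It read 0.13 and -0.37 on control arrays 1 and 3, lacked a value on control arrays 2 and 4, and read -1.87, -1.91, -1.33 and -1.88 on the LPS arrays. The LPS livers gave 18.2 units on average and the control livers with a value 43.3 units, and the ratios of the groups did not overlap. When genes with at least 2 values in each group were let into the fit, a choice made after seeing the data, Cpt1a differed by -1.63 ± 0.23 (adjusted p = 0.0055, 2 control arrays). Of its values 4 were near the ceiling, 1 on each of these control arrays and the pool on LPS arrays 1 and 2.

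Cpt2, which turns the carnitine esters back into coenzyme A esters on the inner mitochondrial membrane, read 0.26, -0.18, -0.29 and 0.15 in controls and -1.06, -0.85, -0.67 and -0.72 after LPS. It fell by 0.81 ± 0.15 (adjusted p = 0.00652), with no overlap. Crat transfers acetyl groups to carnitine in mitochondria and peroxisomes. Its ratios were 0.17, 0, 0 and 0 on control arrays and -0.68, -0.36, -0.58 and -0.46 on LPS arrays, and it fell by 0.56 ± 0.08 (adjusted p = 0.00252). The probe was dim, at 0.0725 units in control and 0.065 units in LPS livers, so most control ratios were exactly 0 because both channels gave the same rounded value. Liver intensities overlapped (0.09, 0.05, 0.08 and 0.07 units in controls, 0.05, 0.07, 0.06 and 0.08 units after LPS). The pool read 0.08, 0.05, 0.08 and 0.07 units on control arrays and 0.08, 0.09, 0.09 and 0.11 units on LPS arrays. With each channel quantile normalized alone, the liver differed by -0.54 and the pool by 0.03. The authors' deposited p-value for liver against pool was 0.00731, 0.11, 0.05 and 0.02 on LPS arrays 1 to 4. Cpt1b, the muscle form (-0.26 ± 0.16, adjusted p = 0.266), and Slc25a20, the carnitine-acylcarnitine carrier (-0.06 ± 0.10, adjusted p = 0.682), had overlapping groups.

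Of the 10 tested genes of mitochondrial beta-oxidation, 7 fell. Each turn of the spiral takes a dehydrogenase, a hydratase, a second dehydrogenase and a thiolase. Acadm, the medium-chain acyl-CoA dehydrogenase, read 0.34, -0.19, -0.11 and -0.01 in controls and -1.28, -1.23, -1.37 and -1.08 after LPS. It fell by 1.25 ± 0.12 (2.37-fold lower, adjusted p = 0.000538), from 36.6 to 15.1 units in the liver channel. Acads, for short chains, read -0.06, 0.38, -0.01 and -0.34 in controls and -0.54, -0.58, -0.61 and -0.64 after LPS. It fell by 0.59 ± 0.14 (adjusted p = 0.0195), but not when LPS array 3 (adjusted p = 0.0537) or LPS array 4 (adjusted p = 0.055) was left out. For longer chains, Acadl (-0.29 ± 0.12, adjusted p = 0.124) and Acadvl (-0.12 ± 0.08, adjusted p = 0.309) did not pass the test. The falls of the medium-chain and short-chain enzymes thus stood beside overlapping values for the long-chain and very-long-chain enzymes, and these differences between genes were not tested. With the liver channel alone, Acadl differed by -0.60 (adjusted p = 0.0878), beside -0.59 for Acads. The dimmer Acadvl probe read 0.035 units in control livers.

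Acaa2, the thiolase that closes the spiral, lacked a value on control array 4. It read 0.29, -0.56 and 0.17 on control arrays 1 to 3 and -1.25, -1.24, -1.53 and -1.11 on the LPS arrays, and it fell by 1.25 ± 0.22 (2.38-fold lower, adjusted p = 0.00786, 3 control arrays), with 2 of the control liver values near the ceiling. Hadh, the dehydrogenase for medium and short hydroxyacyl chains, read 0.20, -0.04, -0.18 and 0.04 in controls and -0.52, -0.67, -0.48 and -0.46 after LPS. Hadh fell by 0.54 ± 0.09 (adjusted p = 0.00495), again without overlap. Echs1, the short-chain enoyl-CoA hydratase, fell by 0.32 ± 0.10 (adjusted p = 0.0482), close to the threshold, and was no longer called when any single LPS array, or control array 1 or 4, was left out (adjusted p = 0.0708 to 0.115).

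Hadha and Hadhb encode the subunits of the trifunctional protein of long-chain oxidation. Hadha read 0, -0.12, 0.13 and 0.05 in controls and -0.14, -0.12, 0 and 0 after LPS, with overlapping groups (-0.08 ± 0.07, adjusted p = 0.434). Hadhb read 0.16, -0.27, -0.06 and 0.18 in controls and -0.61, -0.33, -0.48 and -0.43 after LPS, and fell by 0.46 ± 0.11 (adjusted p = 0.0221). Hadha minus Hadhb was 0.38 higher after LPS (0.21 to 0.48 on LPS arrays, -0.16 to 0.19 on control arrays, two-sided exact permutation p = 0.0286, adjusted p = 0.0714 over 5 pairs), so the pair did not pass the threshold after adjustment. The Hadha probe was dim (0.355 and 0.393 units in control and LPS livers), and Hadhb was no longer called when control array 1 or 4, or any of LPS arrays 1, 3 and 4, was left out (adjusted p = 0.0502 to 0.0589).

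Eci1 and Decr1 act on unsaturated chains. Eci1, the mitochondrial enoyl-CoA isomerase, read 0.12, -0.55, -0.01 and 0.07 in controls and -1.39, -0.92, -1.14 and -0.79 after LPS. It fell by 0.97 ± 0.18 (1.96-fold lower, adjusted p = 0.0080), with no overlap and 2 values near the ceiling. Decr1, the mitochondrial dienoyl-CoA reductase, had values on control arrays 2 and 4 alone (-0.47 and 0.10), and read -1.48, -1.28, -1.28 and -1.27 on LPS arrays. With at least 2 values in each group it differed by -1.14 ± 0.17 (adjusted p = 0.00687), and 6 of its values were near the ceiling.

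The electron transfer flavoprotein takes electrons from the acyl-CoA dehydrogenases. Its alpha subunit gene Etfa fell by 0.44 ± 0.08 (adjusted p = 0.00765), from -0.07 to 0.14 on control arrays to -0.62 to -0.31 on LPS arrays. For the beta subunit gene Etfb the difference was -0.16 ± 0.09 (adjusted p = 0.219), with overlapping groups. Etfa minus Etfb did not pass the threshold after adjustment over 5 pairs (-0.28, exact permutation p = 0.0571, adjusted p = 0.0952), and it turned to 0.05 with the liver channel alone.

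**Figure D4:**
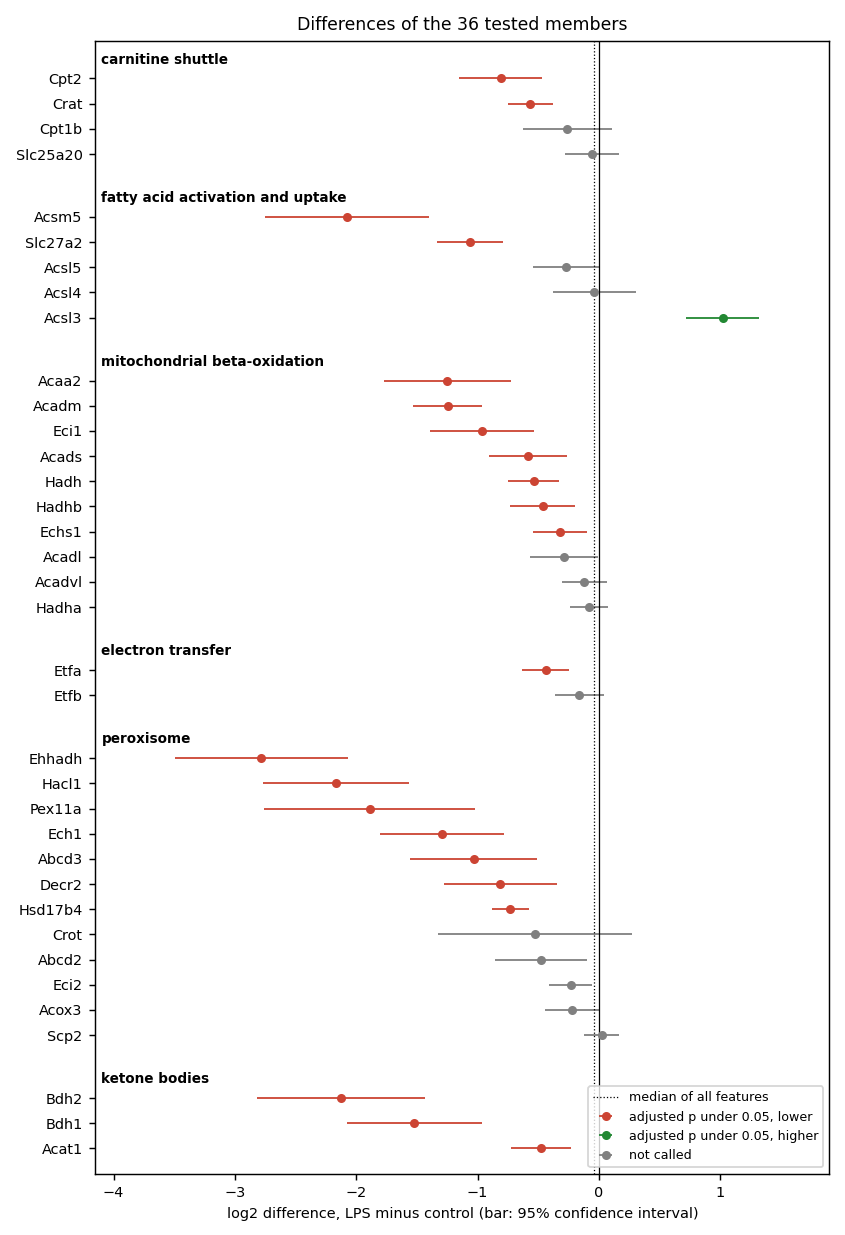
Log2 difference, LPS minus control (horizontal axis), of the 36 tested genes by role, with bars for the 95% confidence interval, a solid line at 0 and a dotted line at the median of all features (-0.04). Ehhadh has the lowest value (-2.78) and Acsl3 the highest (1.02), and the 13 genes in grey did not pass the test.

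Of the 12 tested peroxisomal genes, 7 fell, and Ehhadh had the largest fall of all 36 tested genes. It encodes the L-bifunctional enzyme, which hydrates and then oxidises enoyl chains, among them dicarboxylic acids. Its ratios were 0.42, -0.12, -0.75 and 0.13 on control arrays and -2.17, -2.99, -3.15 and -3.14 on LPS arrays. LPS array 1 thus stood apart from the other LPS arrays while remaining below every control. Ehhadh fell by 2.78 ± 0.31 (6.88-fold lower, adjusted p = 0.000843), and the mean liver intensity went from 35.7 to 5.33 units, with 1 control value near the ceiling. Hsd17b4, the D-bifunctional enzyme for the same steps on branched and very long chains, read 0.12, -0.15, 0.02 and 0.05 in controls and -0.69, -0.71, -0.78 and -0.70 after LPS. It fell by 0.73 ± 0.07 (1.66-fold lower, adjusted p = 0.000405), with LPS values that lay within a narrow range. Both bifunctional enzymes were therefore lower, and whether Ehhadh fell further than Hsd17b4 was not tested.

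Hacl1 cleaves 2-hydroxyacyl-CoA in the alpha-oxidation of branched chains such as phytanic acid. It read 0.36, -0.02, -0.82 and 0.19 in controls and -2.49, -2.23, -1.91 and -2.33 after LPS, and fell by 2.17 ± 0.26 (4.49-fold lower, adjusted p = 0.00120). The groups were far apart, although control array 3 was lower than the other controls. Phyh, the hydroxylase one step before it, had a single control value (-0.26 on control array 3) and no test. Its LPS ratios were -1.08, -0.57, -0.86 and -0.83, all below that value, with the pool near the ceiling on these arrays.

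Ech1, a dienoyl-CoA isomerase found in peroxisomes and mitochondria, read 0.13, -0.48, -0.12 and 0.43 in controls and -1.53, -1.24, -1.53 and -0.91 after LPS. It fell by 1.29 ± 0.22 (2.45-fold lower, adjusted p = 0.00498). Decr2, the peroxisomal dienoyl-CoA reductase, read 0.38, -0.21, -0.51 and 0.19 in controls and -1.08, -0.67, -0.83 and -0.82 after LPS. Decr2 fell by 0.81 ± 0.20 (adjusted p = 0.0222) with no overlap, but was no longer called when control array 4 or any of LPS arrays 1, 3 and 4 was left out (adjusted p = 0.0550 to 0.0592). Eci2, an enoyl-CoA isomerase of peroxisomes and mitochondria, did not pass the test (-0.23 ± 0.08, adjusted p = 0.0645). It passed without control array 2 (-0.30, adjusted p = 0.0101). The difference in Eci1 minus Eci2, LPS minus control, was -0.74 (-1.21 to -0.48 on LPS arrays, -0.36 to 0.03 on control arrays, exact permutation p = 0.0286, the smallest that 70 splits allow, adjusted p = 0.0714 over 5 pairs), so that pair did not pass it either.

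Pex11a, whose product drives the division and growth of peroxisomes, read -1.10, -0.25, 0.16 and 0.67 in controls and -2.09, -1.91, -2.47 and -1.61 after LPS. The control values were widely spread, and the lowest of them still lay above the highest LPS value. Pex11a fell by 1.89 ± 0.37 (3.70-fold lower, adjusted p = 0.00933). Abcd3, a transporter of the peroxisomal membrane that imports branched and dicarboxylic acyl chains, read 0.32, -0.58, -0.26 and 0.29 in controls and -1.41, -0.88, -1.02 and -1.06 after LPS. It fell by 1.03 ± 0.22 (2.05-fold lower, adjusted p = 0.0139), and both of its probes fell (-1.13 and -0.93). Abcd2, a related transporter of very long chains, was read at 0.0198 and 0.0225 units in control and LPS livers, a couple of steps of the 2 decimals. It did not pass the test (-0.48 ± 0.16, adjusted p = 0.0711), though it passed without LPS array 3 (-0.61, adjusted p = 0.0246). The Abcd2 minus Abcd3 difference was 0.56 (exact permutation p = 0.0857, adjusted p = 0.107).

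Crot makes medium-chain carnitine esters for export from the peroxisome. It read -0.72, 0.10, 0.21 and 0.30 on control arrays and -1.39, -0.60, -0.20 and -0.03 on LPS arrays. Array 1 of either group was the lowest, the groups overlapped, and the difference of -0.53 ± 0.34 did not pass the test (adjusted p = 0.303). Acox3, a pristanoyl-CoA oxidase in rats, differed by -0.22 ± 0.10 (adjusted p = 0.137). It passed without control array 3 (-0.30, adjusted p = 0.0323).

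Scp2, the sterol carrier protein whose longer form is a peroxisomal thiolase, differed by 0.02 (95% interval -0.12 to 0.17, adjusted p = 0.806). Its brighter probe gave 0.16 and its dimmer probe -0.12, neither called, and the sign turned with the liver channel alone (-0.04) and without LPS array 3 (-0.02). No direction is given for Scp2.

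Acox2, the oxidase that in rats acts on the side chain of bile acid precursors, was the peroxisomal gene with higher LPS ratios. It read -0.58 and -0.53 on control arrays 1 and 4 and 0.54, 0.63 and 0.29 on LPS arrays 2 to 4, and lacked a value on the other 3 arrays. With at least 2 values in each group it differed by 1.04 ± 0.12 (adjusted p = 0.00617, 2 control and 3 LPS arrays), with 3 values near the ceiling. Both control livers with a value read below the control pool (34.1 and 37.4 against 50.9 and 53.9 units), and the authors' deposited p-value for liver against pool was 0.14 to 0.48 on these 5 arrays. No direction is drawn from these values.

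**Figure D5:**
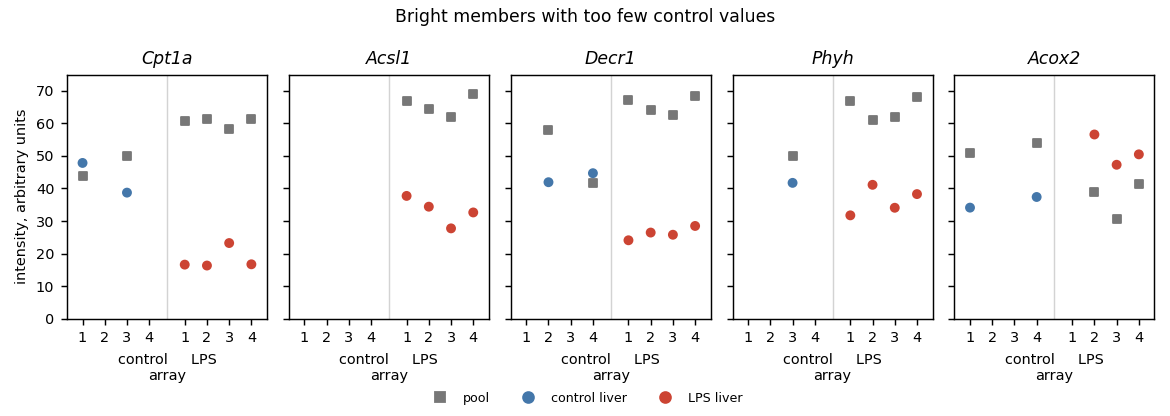
Intensity in arbitrary units (vertical axis) of the 5 genes with fewer than 3 control values, by array (horizontal axis), with squares for the pool and circles for the liver of the same array; a missing point is a missing value. On LPS arrays the liver lies below the pool for Cpt1a, Acsl1, Decr1 and Phyh and above it for Acox2.

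These 5 genes were bright, with liver intensities of 16.3 units or more wherever a value existed, and 9 of the 41 genes had at least 1 value near the ceiling. How missing values relate to saturated spots is not given in the sources used here. Without probes near the ceiling, 18 genes were lower and 1 higher, against 12.4% and 12.2% of all features. Slc27a2, Eci1, Acaa2 and Ehhadh, which fell in the main fit, were removed by this choice and not tested in it.

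All 3 ketone body genes fell. Bdh1 encodes the mitochondrial dehydrogenase that turns acetoacetate into 3-hydroxybutyrate, the main circulating ketone body. It read 0.03, 0.01, 0.53 and -0.63 in controls and -1.50, -1.25, -1.82 and -1.58 after LPS. The groups did not overlap, Bdh1 fell by 1.52 ± 0.24 (2.87-fold lower, adjusted p = 0.00358), and the mean liver intensity went from 24.4 to 7.77 units. Bdh2, a cytosolic dehydrogenase of the same substrate, read -0.16, 0.12, -0.21 and 0.18 in controls and -1.67, -1.75, -3.05 and -2.10 after LPS. It fell by 2.12 ± 0.30 (4.36-fold lower, adjusted p = 0.00228), furthest on LPS array 3. Bdh1 minus Bdh2 did not pass the test (0.60, exact permutation p = 0.2, adjusted p = 0.2).

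Acat1, the mitochondrial thiolase that joins acetyl-CoA into acetoacetyl-CoA and also splits it when ketone bodies are used, read -0.09, 0.06, -0.29 and 0.20 in controls and -0.58, -0.44, -0.47 and -0.53 after LPS. It fell by 0.48 ± 0.11 (1.39-fold lower, adjusted p = 0.0150), with no overlap.

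The LPS arrays did not fall alike. Over the 22 genes that fell, array 1, which the headers place at the lower designation, was the lowest of the 4 in 8 genes and the highest in 4, with a median log2 ratio of -1.24. Array 3 was the lowest in 10 genes and the highest in 2 (median -1.08). Arrays 2 and 4 were each the highest in 8 genes and the lowest in 2 (medians -0.86 and -0.86). With 1 array at the lower designation, it and the array itself cannot be told apart.

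Other genes of the same pathways were counted in the same way. Of 105 further genes, taken from a list that held transport, thioesterases, peroxins, regulators and related dehydrogenases, 91 were tested. Of these, 36 were lower, 10 were higher and 45 did not pass the test, with a median of -0.28, where all features had 12.4% lower, 12.2% higher and a median of -0.04. Among the largest falls were Acsm2, a medium-chain acyl-CoA synthetase (-1.98 ± 0.41, adjusted p = 0.0111), and the acyl-CoA thioesterases Acot12 (-1.45 ± 0.14, adjusted p = 0.000459) and Acot4 (-1.38 ± 0.20, adjusted p = 0.00263). The largest rises were of the fatty acid binding proteins Fabp4 (2.24 ± 0.20, adjusted p = 0.000405) and Fabp2 (1.34 ± 0.14, adjusted p = 0.000759), of Hmgcs1, the cytosolic synthase of the cholesterol pathway (1.54 ± 0.19, adjusted p = 0.00130), and of the monocarboxylate transporter Slc16a1 (1.05 ± 0.21, adjusted p = 0.0110). The rises thus lay in carriers and in cholesterol synthesis, and the falls named in activation and thioester cleavage.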

How the data were processed

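The authors deposited 1 table of processed intensity values (linear, arbitrary units, 2 decimals) that holds both channels of 8 arrays, a deposited p-value for liver against pool on each array, and a matrix of log10 ratios of the same arrays. Per the labels' protocols, 100 ng of RNA passed through 2 rounds of amplification. The submitters' processing notes name Agilent Feature Extraction 8.5.1.1; how background and dyes were treated is not given in the sources used here. Array headers hold animal numbers that the labels lack, so each array was placed in a group by its header. The order of arrays within a group matched the labels' replicate numbers by value (median absolute log2 difference between the deposited ratios 9.63e-05).

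Probes were named by accession through the GRCr8 gene table (4176), by current symbol (9462), by older symbol (2629) or kept as given (471), and 6877 of 23615 had none. Log2 ratios of liver over pool were averaged over the probes of a gene, with at least 3 values in each group. The groups were compared by lmFit and eBayes of limma 3.58.1 (R 4.3.3, 1.54 prior degrees of freedom) over 21052 features. Pairs were compared with exact two-sided permutation tests. The liver channel alone was quantile normalized. The fit was tested on simulated data. Every member is named, with values on every array for those with an absolute log2 difference of at least 0.5, the ketone genes, Cpt1a, Cpt2, Acsl1, Hadha and Hadhb; from the pathway list the 4 largest falls and rises among called genes are named. A few genes that these rules would name are left out. Members and lists were chosen with earlier results of these data known. Python 3.11.15, pandas 2.3.3, scipy 1.17.1 and matplotlib 3.10.9 made tables and figures.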

Additional observations from a re-analysis of the deposited data

Results flagged for a closer look

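In 5 of 75 groups of 4 values, 1 array stood apart from the other 3 of its group, with a gap, as a share of the range of the group, above Dixon's critical value, which chance alone does in about 1 in 20 groups. Cpt1a read -1.33 on LPS array 3, against -1.91 to -1.87 on the other LPS arrays. Ehhadh read -2.17 on LPS array 1, against -3.15 to -2.99. Decr1 read -1.48 on LPS array 1, against -1.28 to -1.27, and Slc27a2 read -0.826 on LPS array 2, against -1.29 to -1.21. Crat read 0.17 on control array 1, against 0 on the other 3, where both channels of this dim probe gave the same rounded value. In each of these genes the LPS values stayed below all control values that existed.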

How the results depend on the processing

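Under quantile normalization of the log2 ratios 7 members were lower and 0 higher (22 and 1 before), 693 and 825 of all features, and 12 and 6 of the pathway list; the medians were -0.42 for all members, -0.36 for the mitochondrial steps, -0.39 for beta-oxidation, -0.19 for activation and -1.07 for ketone bodies. Against a 1.5-fold change 5 members were lower and 0 higher, 139 and 252 of all features, and 5 and 3 of the pathway list; the causes were not tested. With the liver channel alone 1501 features were higher, the medians were -0.48 for activation, -0.60 for beta-oxidation and -0.41 for electron transfer, and Etfa minus Etfb (0.0485), Hadha (0.0486) and Scp2 (-0.0418) turned sign. The activation median was -0.20 with array weights and -0.16 without probes near the ceiling, and that of beta-oxidation -0.39 without such probes. The carnitine median was -0.26 with a minimum of 0.1 units, -0.26 without genes of both organelles and -0.56 with at least 2 values in each group, where 2 members were higher; this last choice was made after seeing the data. Leaving out 1 array gave 18 to 23 members lower, 1945 to 2511 of all features lower and 1989 to 2395 higher, 29 to 33 of the pathway list lower and 7 to 10 higher, and an activation median of -0.34 to -0.16. It turned Slc25a20 without LPS array 3 (-0.11 to 0.0062 over the arrays left out), Acsl4 without control array 4 or LPS array 1 (-0.13 to 0.0837), and Scp2 without LPS array 3 (-0.0171 to 0.0578). The dimmer probes alone turned Acsl4 (0.0227) and Scp2 (-0.12). Without control array 3 and LPS array 1 together, 15 members were lower, against 9.99% of all features: Acads, Hadhb, Echs1, Eci1, Abcd3 and Pex11a lost the call. Acaa2 then had too few control values for a test.

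The label replicate numbers are in the matrix of log10 ratios. In deviations from the group means, same-numbered arrays correlated at -0.01, -0.02, 0.03 and 0.17. The highest correlations with another number were 0.07, 0.13, 0.06 and 0.0004. These few arrays cannot settle whether the numbers paired the samples. With a replicate block 19 members were lower: Hadhb, Echs1, Decr2 and Abcd3 lost the call and Crot gained it (adjusted p = 0.0259), and 3786 of all features were called, against 5194 without it. A term for array sets seen in the pool channel was not run, since these sets were the groups themselves. Effects of LPS and of array set therefore cannot be told apart. Intensity steps of 0.01 units limit Crat, Abcd2 and Acsm5, and the spread of Acsl3 on LPS arrays.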
